A study of Mus musculus with 6 samples.

Results

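Mitosis and kinetochore genes encode the machinery that condenses, aligns and separates chromosomes and then cuts the cell in 2. The set described here was given by name: 34 genes, with the probe set of highest mean level standing for each gene, taken from those annotated to no other gene. All 34 were found among the 22180 genes measured, each with 1 such probe set. Brightness here means the level of the RMA log2 expression value, where a step of 1 is a doubling.

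The 6 samples were B16-F1 tumours, grown from a pigmented mouse melanoma line, that had been implanted at the dorsal flank of C57BL6 mice and were taken at day 20. Of these, 3 came from wild type (WT) hosts and 3 from hosts lacking Stat2 (Stat2 KO), a transcription factor of the type I interferon response. Both groups received the same B16-F1 cells, only the host differs in genotype, and the mice's age was not given. Nothing in the labels ties each tumour to a separate mouse, and the p-values cover the spread among these 6 tumours alone, which may be partly technical. Tumours grew larger in Stat2 KO hosts according to the series' design text, and the comparison here asks whether transcripts of cell division differed with the host.

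Most of these genes are transcribed late in the cell cycle, from the G2 phase into mitosis, and are held low in resting cells by the DREAM complex. Their messages therefore serve as markers of dividing cells in tumours. Within mitosis, cyclin B with CDK1 drives entry, and the kinetochore ties centromeres to spindle microtubules. The spindle checkpoint delays anaphase by holding back the anaphase-promoting complex until all chromosomes are attached. Once released, the complex marks cyclin B and securin for destruction. RNA of a whole tumour holds the messages of melanoma, immune and stromal cells together, so fewer dividing cells and less RNA per dividing cell cannot be told apart.

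Array medians over all probe sets lay between 6.06 and 6.22, and whether all 6 arrays were normalized together is not stated, which bears on every difference given here. Stat2 read 6.45, 6.48 and 6.33 in the Stat2 KO hosts and 6.79, 6.70 and 6.70 in the WT hosts, a difference of -0.31 (SE 0.126, limma adjusted p = 0.532) in tumours grown from the same melanoma line in both groups. Melanocyte markers were present in every tumour, with a summed level of the 14 markers, on the log2 scale, of 14.8 to 15.3 in Stat2 KO hosts, against 15.1 to 15.4 in WT hosts, and 0 of 14 stood as low as 5.21, where the middle of 1088 olfactory receptor genes lies.

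Many of these genes share short regulatory motifs close to their start sites. In many mitotic promoters the DREAM and B-Myb-MuvB complexes bind a short element called the cell cycle genes homology region (CHR), and the factor NF-Y binds CCAAT boxes upstream of it. Promoter windows of RefSeq, from 250 bases before to 50 after the annotated start in the build GRCm38.p6, were available for 29 of the 34 genes, in 31 windows. They were searched on both strands for TTTGAA or TTCGAA as CHR cores and for CCAAT, and matches of the 2 motifs overlapped in 0 member windows. A CHR core stood in the windows of 24 of the 29 genes (82.8%) and in those of 21.7% of all 27025 genes with a window. CCAAT stood in 22 of 29 (75.9%) against 41.1%, and both motifs in 21 of 29 (72.4%) against 8.6%. A CHR core within 40 bases on either side of the start was found for 72.4% of the members and 5.0% of all genes. Birc5, Mad2l1, Nuf2 and Nusap1 held neither set of letters in the window from 250 bases before to 50 after the start. In several members the only CHR core began after the start, as in Aurka (position 33), Bub1 (15), Plk1 (31) and Ttk (8).

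The promoters of 6 members with both motifs upstream of the start are shown because they carry both sets of letters, chosen in order of the members' p-values. They do not stand for all members, since in others a motif is missing or lies only after the start. Each is written 5′ to 3′ in the direction of transcription, ends before the gene's outermost annotated start, and has the CHR cores and CCAAT boxes in capitals, as named above or as their reverse complements.
Cdk1 (minus strand, chr10:69352913-69353032): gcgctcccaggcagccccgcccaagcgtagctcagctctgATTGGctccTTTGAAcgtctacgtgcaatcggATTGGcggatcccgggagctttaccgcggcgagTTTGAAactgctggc
Kif11 (plus strand, chr19:37376262-37376381): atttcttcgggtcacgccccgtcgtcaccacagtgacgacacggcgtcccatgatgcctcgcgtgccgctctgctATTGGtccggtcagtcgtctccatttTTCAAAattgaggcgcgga
Mki67 (minus strand, chr7:135716451-135716579): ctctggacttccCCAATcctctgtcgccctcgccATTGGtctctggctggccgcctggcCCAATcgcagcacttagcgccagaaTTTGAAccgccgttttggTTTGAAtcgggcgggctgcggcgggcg
Top2a (minus strand, chr11:99024200-99024309): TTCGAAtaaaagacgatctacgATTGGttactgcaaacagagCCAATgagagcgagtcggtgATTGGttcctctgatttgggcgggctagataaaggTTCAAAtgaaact
Cdc20 (minus strand, chr4:118437344-118437463): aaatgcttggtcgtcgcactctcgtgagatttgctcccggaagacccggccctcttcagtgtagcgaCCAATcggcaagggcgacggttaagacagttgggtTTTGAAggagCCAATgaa
Bub1b (plus strand, chr2:118598011-118598201): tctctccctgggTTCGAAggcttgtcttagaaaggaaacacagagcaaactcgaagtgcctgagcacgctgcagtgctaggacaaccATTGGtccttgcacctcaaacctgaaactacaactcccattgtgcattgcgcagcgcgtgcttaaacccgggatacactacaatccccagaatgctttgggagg
In Cdk1 and Kif11 a CHR core begins at positions -15 and -19 from the start, with an inverted CCAAT box upstream of it. In Mki67 a pair of CHR cores follows 3 CCAAT boxes, and in the stretch of Top2a shown 3 CCAAT boxes lie between 2 CHR cores, with further matches of both motifs upstream of it. In Bub1b the order is the other way, with the CHR core at position -188 from the start and the CCAAT box at -113, and a further CHR core after the start is outside the stretch. A match is a description of the letters, and no binding was measured here.

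As a group, mitosis and kinetochore genes read slightly lower in tumours of Stat2 KO hosts, and no member passed the test. Each difference is the mean log2 value in Stat2 KO hosts less that in WT hosts, tested with limma and adjusted over all 22180 genes. Of the 34 members, 32 lay below 0 and 2 above, with a median of -0.17 and a range from -0.35 (Kif4) to 0.12 (Ccnb2), beside 46.0% of all genes below 0 and a median of 0.021. With an adjusted p under 0.05 there were 0 members, beside 0.00902% of all genes, and the members' adjusted p-values ran from 0.528 to 0.988. At an unadjusted p under 0.05 there were 2 lower members (Cdk1 and Kif4) and 0 higher ones, beside 3.48% and 5.34% of all genes. The groups were separate, with Stat2 KO lower, for 4 members (Cdk1, Birc5, Mad2l1 and Nusap1), beside 5.11% of all genes, and with Stat2 KO higher for 0, beside 8.23%. The limma 95% intervals, not adjusted for the number of genes, included 0 for 32 members, and the lowest bound of any member was -0.70.

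**Figure D1:**
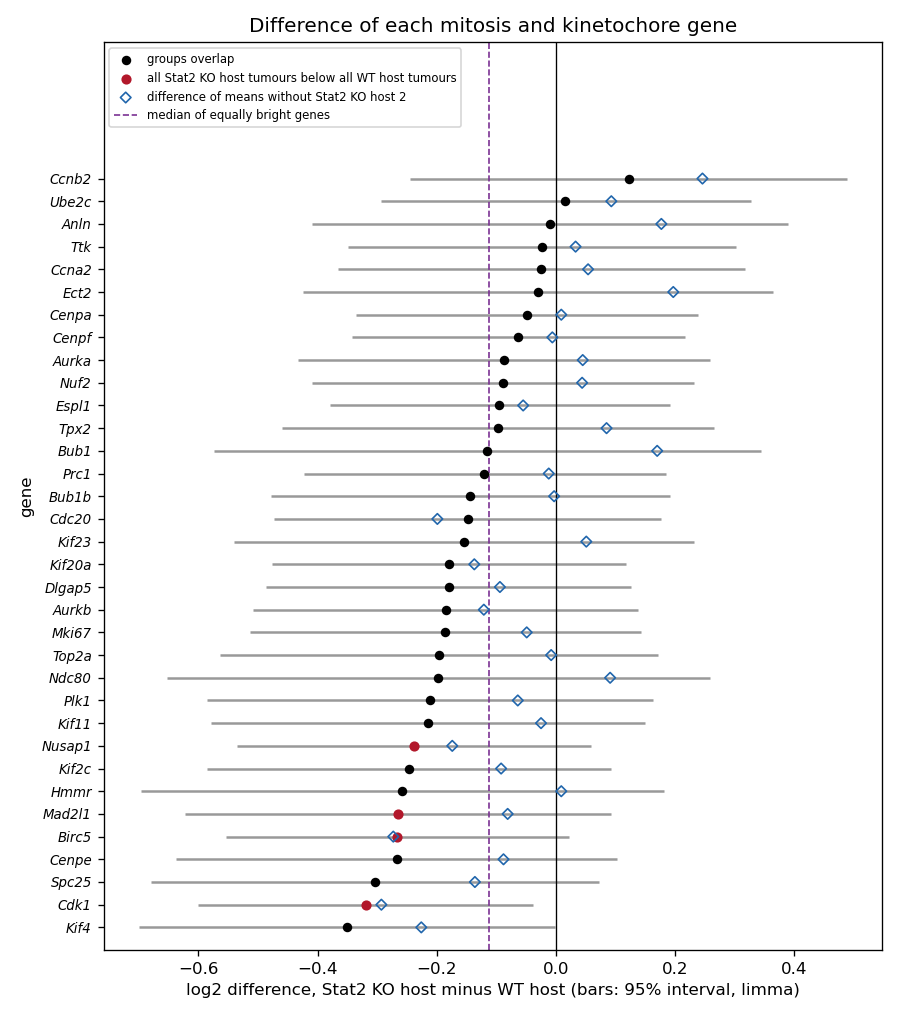
Log2 difference of each of the 34 genes between Stat2 KO and WT hosts (points, negative where Stat2 KO is lower), with 95% intervals from limma (bars), the difference of means without the tumour of Stat2 KO host 2 (diamonds) and the median of equally bright genes (dashed line, -0.11). Red points mark the 4 genes whose groups did not overlap, and the differences run from -0.35 for Kif4 to 0.12 for Ccnb2.

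Equally bright genes also read lower in Stat2 KO hosts. All 34 members were brighter than the median gene, between the 65.1 and the 98.9 percentile of all genes, and 29 of them stood in the top 2 of 10 bins of genes by level. Over the 2421 genes whose mean level lay between the members' lower and upper quartiles, from 8.01 to 9.19, the median difference was -0.11 and 78.0% lay below 0. In this band 6.28% of genes were lower and 0.991% higher at an unadjusted p under 0.05, groups did not overlap for 7.72% in the lower and 1.07% in the higher direction, and 0.0% passed the adjusted threshold. The members' median was thus -0.054 from that of the band. Tumour by tumour, the members' mean deviation less that of the band was 0.038, -0.14 and 0.042 in Stat2 KO hosts 1, 2 and 3, and -0.078, 0.006 and 0.13 in the WT hosts, so the groups overlapped. The group means of this distance differed by -0.039, less than its pooled SD of 0.10 between tumours of 1 group (n = 3 each). Across these 10 bins, the median difference went from 0.12 in bin 3 to -0.12 in bin 9.

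**Figure D2:**
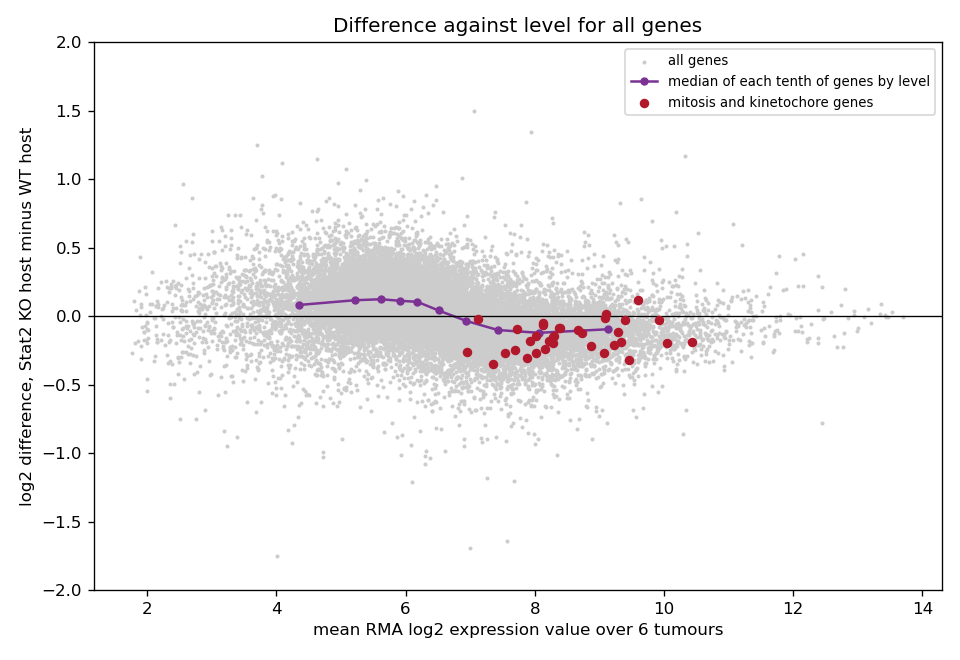
Log2 difference (Stat2 KO less WT) of all 22180 genes against their mean level over 6 tumours (grey), with the median of each of 10 bins of genes by level (purple line) and the 34 mitosis and kinetochore genes (red). The purple line goes from 0.12 in bin 3 to -0.12 in bin 9, and the red points lie in the bright part where it is below 0.

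The slope with level was removed by a further quantile normalization, and most of the members' difference with it. After it the members' median was -0.050 with 22 of 34 below 0, while the band stood at -0.002 with 50.6% below 0. The distance between members and band was -0.047 with quantile normalization and -0.054 with cyclic loess, but -0.001 with array weights, where the members' median was -0.12. It ranged from -0.094 without WT host 1 to 0.029 without Stat2 KO host 2, and was 0.001 without WT host 3, so its sign changed with 1 tumour left out.

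A single tumour, that of Stat2 KO host 2, carried most of the difference. It held the lowest of the 6 values for 28 of the 34 members, beside 55.6% of the equally bright genes and 22.7% of all genes, and the highest for 0. For these 28 it lay 0.033 to 0.68 below the next tumour, with a median of 0.29. It was below all WT tumours for 31 members, the tumour of Stat2 KO host 3 for 17 and that of Stat2 KO host 1 for 4. The tumour of Stat2 KO host 1 was instead above all WT tumours for 13 members.

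The mean deviation of the 34 members from each gene's own mean was 0.13, -0.33 and -0.025 in the tumours of Stat2 KO hosts 1, 2 and 3 and 0.049, 0.076 and 0.10 in those of WT hosts 1, 2 and 3. The groups overlapped on this scale, since Stat2 KO host 1 stood highest of all. Equally bright genes had 0.090, -0.19 and -0.067 in Stat2 KO hosts, against 0.13, 0.070 and -0.027 in WT hosts. Without the tumour of Stat2 KO host 2 the members' median difference was -0.010, with 20 of 34 below 0, and that of equally bright genes -0.039. Without the tumour of Stat2 KO host 1 the members' median was -0.28, and 16 of 34 members had separate groups with Stat2 KO lower, beside 33.1% of equally bright and 14.7% of all genes. Without WT host 3 there were 9, beside 28.6% and 14.2%, and without WT host 1 there were 6, beside 9.79% and 8.1%. Groups of 2 and 3 tumours separate more easily than groups of 3, so these counts are read against those shares.

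**Figure D3:**
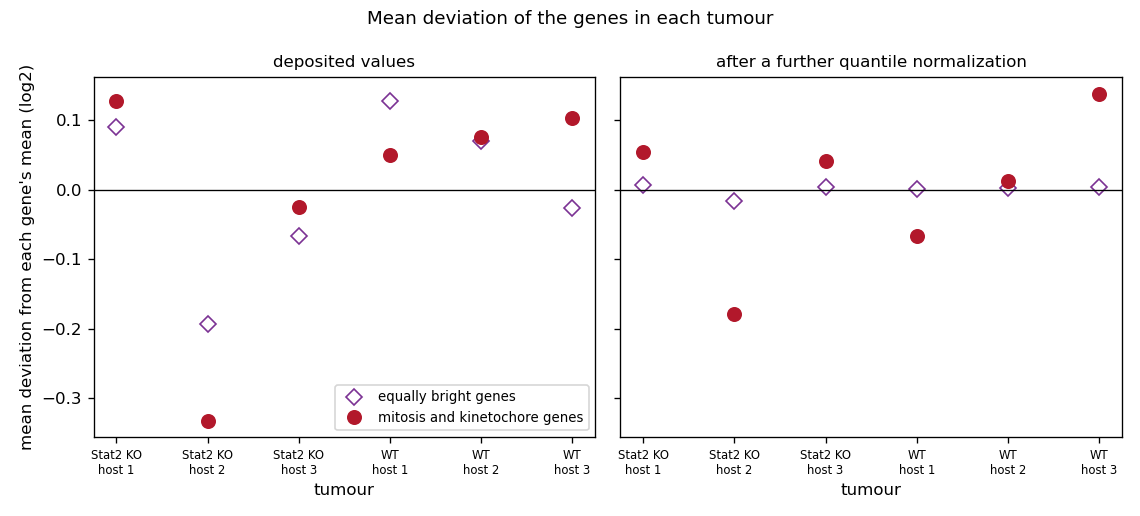
Mean deviation of the 34 mitosis and kinetochore genes (red circles) and of 2421 equally bright genes (open diamonds) from each gene's mean over 6 tumours, on the log2 scale, in the deposited values (left) and after a further quantile normalization (right). The tumour of Stat2 KO host 2 is lowest in both panels, at -0.33 and -0.18, while equally bright genes there went from -0.19 to -0.016.

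After quantile normalization the members' mean deviation was 0.054, -0.18 and 0.041 in Stat2 KO hosts 1, 2 and 3 and -0.066, 0.012 and 0.14 in WT hosts 1, 2 and 3. Stat2 KO host 2 then held the lowest value for 17 of 34 members, beside 28.5% of equally bright genes. In the deposited values melanocyte markers were lowest in Stat2 KO host 2 for 13 of 14 genes, with a mean deviation of -0.42. Their summed level was 14.8 there, against 15.1 to 15.4 in the other 5 tumours. Fibroblast markers were lowest in Stat2 KO host 2 for 8 of 14 genes. Their summed level was 10.59 to 11.04 in Stat2 KO hosts, against 11.14 to 11.42 in WT hosts. Stat2 KO host 2 was lowest for 55.6% of genes as bright as the mitotic members, 38.3% of genes brighter than the median gene and 22.7% of all genes. The median levels of the melanocyte and fibroblast markers, 10.329 and 6.859, lay outside the members' band of 8.01 to 9.19. The share among genes as bright as these markers was not computed. The part of these cell types in the level of the mitotic genes was not tested.

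**Figure D4:**
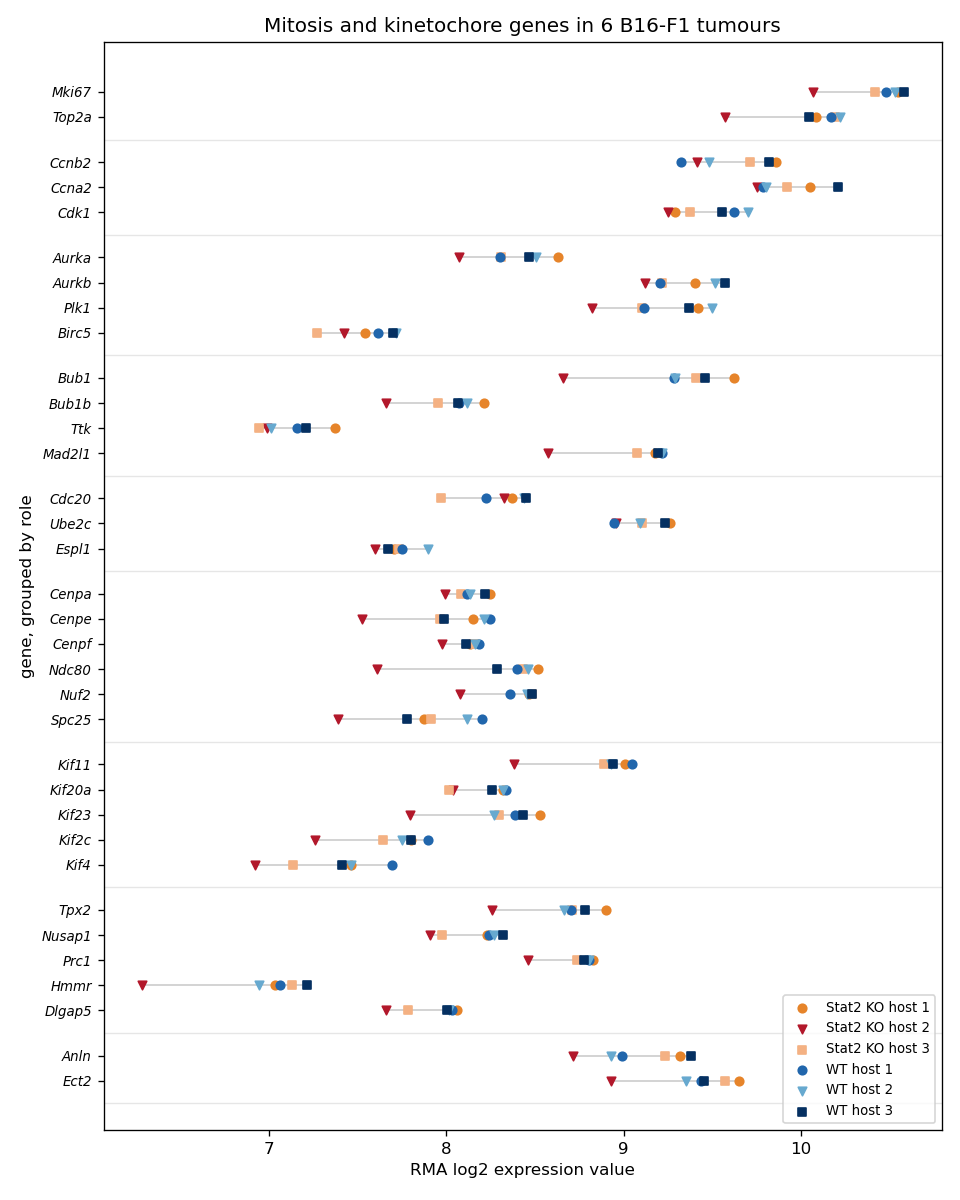
RMA log2 expression values (horizontal axis) of the 34 genes in the 6 tumours, grouped by role from the top: proliferation marker and chromosome, cyclins and CDK1, mitotic kinases and passenger complex, spindle checkpoint, anaphase-promoting complex activation and separase, centromere and kinetochore, kinesins, spindle assembly and midzone, cleavage furrow. Stat2 KO host 2 (dark red triangles) stands at the left end of 28 of the 34 rows.

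Mki67 encodes Ki-67, a coat of mitotic chromosomes widely used as a proliferation marker. It read 10.54, 10.07 and 10.42 in the tumours of Stat2 KO hosts 1, 2 and 3 and 10.48, 10.53 and 10.58 in those of WT hosts 1, 2 and 3. The groups overlapped, as Stat2 KO host 1 lay within the WT tumours. The difference was -0.19 (SE 0.151, adjusted p = 0.716), and -0.049 without Stat2 KO host 2. Top2a encodes topoisomerase II alpha, which untangles sister chromatids. It measured 10.08, 9.57 and 10.19 in Stat2 KO hosts, against 10.17, 10.22 and 10.05 in WT hosts, with Stat2 KO host 2 alone outside the spread of the others. It differed by -0.20 (SE 0.169, adjusted p = 0.731), and by -0.008 without that tumour.

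The cyclins and their kinase did not share a pattern. Cdk1, the kinase that drives mitotic entry, read 9.29, 9.25 and 9.37 in Stat2 KO hosts, against 9.62, 9.70 and 9.55 in WT hosts. The groups were fully separate, with SDs of 0.063 and 0.075 (n = 3 each), and here Stat2 KO host 2 did not stand apart. The difference of -0.32, a change of -19.8%, had an SE of 0.129, a limma p of 0.0291 and an adjusted p of 0.528, and the exact two-sided permutation test over 6 tumours gave p = 0.1, the smallest it can give. Over all alternatives it lay between -0.39 and -0.21, with adjusted p-values from 0.123 to 0.959.

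Ccnb2 encodes cyclin B2, a partner of CDK1. It read 9.86, 9.41 and 9.71 in Stat2 KO hosts, against 9.32, 9.48 and 9.82 in WT hosts, the groups overlapping over nearly their whole range. It differed by 0.12 (SE 0.168, adjusted p = 0.828) and by 0.25 without Stat2 KO host 2. Ccna2, the gene of cyclin A2, which acts in S phase and early mitosis, differed by -0.025. A pseudogene, Ccnb2-ps, is also annotated in the mouse, and whether its transcript adds to the Ccnb2 probe set is uncertain.

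The 4 genes of mitotic kinases and the chromosomal passenger complex all had negative differences, from -0.27 to -0.087. Birc5 encodes survivin, which brings the passenger complex to centromeres. It read 7.54, 7.42 and 7.27 in Stat2 KO hosts, against 7.62, 7.72 and 7.70 in WT hosts, without overlap and with Stat2 KO host 3, not 2, as the lowest. The difference was -0.27 (SE 0.132, adjusted p = 0.588), and -0.27 again without Stat2 KO host 2. Aurkb, the kinase of that complex, read 9.40, 9.12 and 9.22 in Stat2 KO hosts, against 9.21, 9.52 and 9.57 in WT hosts. WT host 1 lay among the Stat2 KO tumours, and the difference was -0.18 (SE 0.148, adjusted p = 0.714). Plk1, which acts at centrosomes, kinetochores and the midzone, differed by -0.21, and Aurka, the centrosome and spindle kinase, by -0.087.

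Spindle checkpoint genes were lower in 4 of 4 members, from -0.27 to -0.023. Mad2l1 encodes MAD2, which holds CDC20 inactive while kinetochores are unattached. It measured 9.18, 8.57 and 9.07 in Stat2 KO hosts, against 9.21, 9.21 and 9.19 in WT hosts. The groups did not overlap, though Stat2 KO host 1 lay close to the lowest WT tumour, and the WT tumours were within an SD of 0.012. The difference of -0.27 (SE 0.164, adjusted p = 0.645) became -0.081 without Stat2 KO host 2. Bub1b, the gene of the checkpoint protein BUBR1, read 8.21, 7.66 and 7.95 in Stat2 KO hosts, against 8.07, 8.12 and 8.07 in WT hosts. Its Stat2 KO tumours lay on both sides of the WT tumours, and the difference was -0.14 (SE 0.154, adjusted p = 0.783). Bub1, a kinase that recruits checkpoint proteins to kinetochores, had the widest spread among Stat2 KO tumours of any member (SD 0.504, n = 3), from 8.66 in Stat2 KO host 2 to 9.62 in Stat2 KO host 1. Ttk, the MPS1 kinase at the head of the checkpoint, differed by -0.023.

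Genes that act with the anaphase-promoting complex or open cohesin differed little. Cdc20, the activator of the anaphase-promoting complex, read 8.37, 8.32 and 7.97 in Stat2 KO hosts, against 8.22, 8.44 and 8.45 in WT hosts. Here Stat2 KO host 3 was lowest and the groups overlapped, with a difference of -0.15 (SE 0.149, adjusted p = 0.771). Espl1 encodes separase, the protease that cuts cohesin at anaphase. It measured 7.71, 7.60 and 7.73 in Stat2 KO hosts, against 7.75, 7.90 and 7.67 in WT hosts, with overlapping groups. It differed by -0.095 (SE 0.131, adjusted p = 0.828), and Ube2c, the ubiquitin-conjugating enzyme of the complex, by 0.016.

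All 6 centromere and kinetochore genes were lowest in Stat2 KO host 2. Spc25, a subunit of the NDC80 complex that grips microtubules, read 7.87, 7.39 and 7.91 in Stat2 KO hosts, against 8.20, 8.11 and 7.78 in WT hosts. WT host 3 lay below Stat2 KO hosts 1 and 3, so the groups overlapped, and the difference was -0.30 (SE 0.173, adjusted p = 0.626). Cenpe, a kinetochore motor that moves chromosomes to the spindle equator, read 8.15, 7.52 and 7.97 in Stat2 KO hosts, against 8.24, 8.21 and 7.98 in WT hosts, with a difference of -0.27 (SE 0.170, adjusted p = 0.652). Without Stat2 KO host 2 these became -0.14 for Spc25 and -0.088 for Cenpe. The partners of Spc25 in the complex, Ndc80 and Nuf2, differed by -0.20 and -0.089, and by 0.091 and 0.044 without that tumour. Ndc80 read 7.61 in Stat2 KO host 2 and between 8.29 and 8.51 in the other 5 tumours. Cenpa, the centromeric histone, and Cenpf, a large protein of the outer kinetochore, differed by -0.048 and -0.063.

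Kinesins, motors that walk along or shorten microtubules, had negative differences in 5 of 5 members, from -0.35 to -0.15. Kif4, a chromosome-bound motor that also works at the midzone, read 7.46, 6.92 and 7.13 in Stat2 KO hosts, against 7.70, 7.47 and 7.41 in WT hosts. Stat2 KO host 1 lay above WT host 3, so the groups overlapped. The difference of -0.35, a change of -21.6%, had an SE of 0.160, a limma p of 0.0488 and an adjusted p of 0.564, and was -0.23 without Stat2 KO host 2. The annotation also holds a pseudogene, Kif4-ps, and whether the probe sets tell both apart is uncertain. Kif2c, a kinesin that takes apart microtubules at centromeres, read 7.80, 7.26 and 7.64 in Stat2 KO hosts, against 7.90, 7.75 and 7.80 in WT hosts. Stat2 KO host 1 lay above WT host 2 and just above WT host 3, so the groups overlapped. The difference was -0.25 (SE 0.156, adjusted p = 0.651). Kif11, which pushes spindle poles apart, differed by -0.21, Kif20a, which brings the passenger complex to the midzone, by -0.18, and Kif23, the motor of centralspindlin, by -0.15.

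Genes of spindle assembly and the midzone were lowest in Stat2 KO host 2 in 5 of 5 cases. Nusap1, which bundles microtubules near chromosomes, read 8.23, 7.91 and 7.97 in Stat2 KO hosts, against 8.24, 8.27 and 8.32 in WT hosts. The groups did not overlap, with Stat2 KO host 1 just below WT host 1, and the difference was -0.24 (SE 0.137, adjusted p = 0.627; exact permutation p = 0.1). Dlgap5, which stabilizes kinetochore fibres, read 8.06, 7.66 and 7.78 in Stat2 KO hosts, against 8.03, 8.01 and 8.01 in WT hosts. Stat2 KO host 1 stood above all WT tumours, and the difference was -0.18 (SE 0.141, adjusted p = 0.709). Hmmr, a spindle protein and hyaluronan receptor, read 6.28 in Stat2 KO host 2 and 6.94 to 7.21 in the other 5 tumours. It differed by -0.26, and by 0.009 without that tumour. This 6.28 was the one member value below 6.73, the 95th percentile of olfactory receptor genes, and the other 33 members lay above that level in every tumour. Tpx2, an activator of Aurora A, and Prc1, which crosslinks midzone microtubules, differed by -0.098 and -0.12.

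Cleavage furrow genes were close to 0. Anln encodes anillin, a scaffold of the contractile ring, and read 9.32, 8.71 and 9.23 in Stat2 KO hosts, against 8.99, 8.93 and 9.38 in WT hosts. Ect2, which switches on RhoA at the furrow, read 9.65, 8.93 and 9.57 in Stat2 KO hosts, against 9.44, 9.35 and 9.45 in WT hosts. For Ect2, Stat2 KO hosts 1 and 3 stood above all WT tumours and Stat2 KO host 2 below them. The differences were -0.010 for Anln (SE 0.184, adjusted p = 0.988) and -0.030 for Ect2 (SE 0.182, adjusted p = 0.967), and 0.18 and 0.20 without Stat2 KO host 2.

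The SD was larger among Stat2 KO tumours than among WT tumours for 29 of 34 members, beside 68.1% of equally bright and 57.6% of all genes. The members' median SDs were 0.26 and 0.086 (n = 3 each), and those of equally bright genes 0.20 and 0.14. A group of 3 tumours gives an uncertain SD, and no test of the spread was made.

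Other genes of mitosis, from lists that do not hold the members, had medians in the same range, and 0 of them passed the adjusted threshold. Their counts stand beside 78.0% below 0 among genes as bright as the members. At an unadjusted p under 0.05, 3.48% of all and 6.28% of those genes were lower. The lists of mitotic regulators, spindle and cytokinesis genes, and centromere and kinetochore genes were dimmer, with median levels of 7.53, 7.534 and 7.152. The levels of 7.53 and 7.534 lay in bin 8 of genes by level, with 72.9% of genes below 0 and a median of -0.101. The level of 7.152 lay in bin 7, with 59.1% below 0 and a median of -0.034. Of 29 measured regulators of mitosis, 26 were below 0 with a median of -0.15, and 3 were lower at an unadjusted p under 0.05. These were Fbxo5, the inhibitor EMI1 of the anaphase-promoting complex, at -0.39 (SE 0.133, adjusted p = 0.497), Depdc1a at -0.49 and Cdca3 at -0.38. Without Stat2 KO host 2 the median of this list was -0.037. Fbxo5 read 7.41, 7.33 and 7.28 in Stat2 KO hosts, against 7.81, 7.80 and 7.56 in WT hosts, with no overlap and WT host 3 the lowest of the WT tumours.

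Of 26 other centromere and kinetochore genes, 23 were below 0 with a median of -0.18. Spc24, which pairs with Spc25, read 6.94, 6.79 and 7.09 in Stat2 KO hosts, against 7.31, 7.28 and 7.31 in WT hosts. Its groups did not overlap, and it differed by -0.36 (SE 0.133, adjusted p = 0.509). Cenpw, a histone-fold protein of the centromere, and Cenpk differed by -0.49 and -0.55. Of 21 other spindle and cytokinesis genes, 20 were below 0 with a median of -0.17, among them Kif20b at -0.38, Kif22 at -0.31 and Racgap1, the centralspindlin partner of Kif23, at -0.29. Without Stat2 KO host 2 the medians were -0.10 for the centromere and kinetochore list and -0.068 for the spindle and cytokinesis list.

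Of 16 condensin and cohesin genes, 14 were below 0 with a median of -0.18. The cohesin loader Nipbl differed by -0.52 and the condensin genes Smc4 and Ncapd2 by -0.39 and -0.32, and the median without Stat2 KO host 2 was -0.067. Core subunits of the anaphase-promoting complex are made throughout the cell cycle. Their list, which also holds the activator Fzr1, had a median of -0.094 with 12 of 15 below 0, and Anapc16 differed by -0.42. The median of this list was 0.016 without Stat2 KO host 2, 0.020 after cyclic loess and -0.004 after quantile normalization, so its direction did not hold. Of 17 genes of MuvB, B-Myb, FoxM1 and related regulators, 16 were below 0 with a median of -0.17, among them Lin52, a subunit of MuvB, at -0.45, and the median was -0.10 without Stat2 KO host 2 and -0.083 after quantile normalization. CDK inhibitors were split, with 4 of 7 below 0 and a median of -0.033, and Cdkn2c differed by -0.44 and Cdkn2b by 0.17. That median had no stable sign, at 0.070 after quantile normalization, 0.082 after cyclic loess, 0.057 without Stat2 KO host 1, 0.046 without Stat2 KO host 3, 0.012 without WT host 2 and -0.11 with array weights.

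Genes of DNA replication, the S phase counterpart, were below 0 in 17 of 19 cases with a median of -0.21, which was -0.11 without Stat2 KO host 2, -0.12 after quantile normalization and -0.11 after cyclic loess. Prim1 differed by -0.47, Mcm3 by -0.45 and Rrm2 by -0.40, with adjusted p-values of 0.486, 0.489 and 0.538. Of these 19 genes, 7 had groups that did not overlap, with Stat2 KO lower, as against 4 of the 34 mitosis and kinetochore genes. The shares were 5.11% of all genes and 7.72% of genes as bright as the members. The same count was 5 of 26 other centromere and kinetochore genes, 4 of 29 other mitotic regulators and 3 of 21 other spindle and cytokinesis genes. It was 4 of 16 condensin and cohesin genes and 4 of 17 MuvB and related regulators. For the anaphase-promoting complex list and the CDK inhibitors it was 0. Differences between these lists were not tested.

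**Figure D5:**
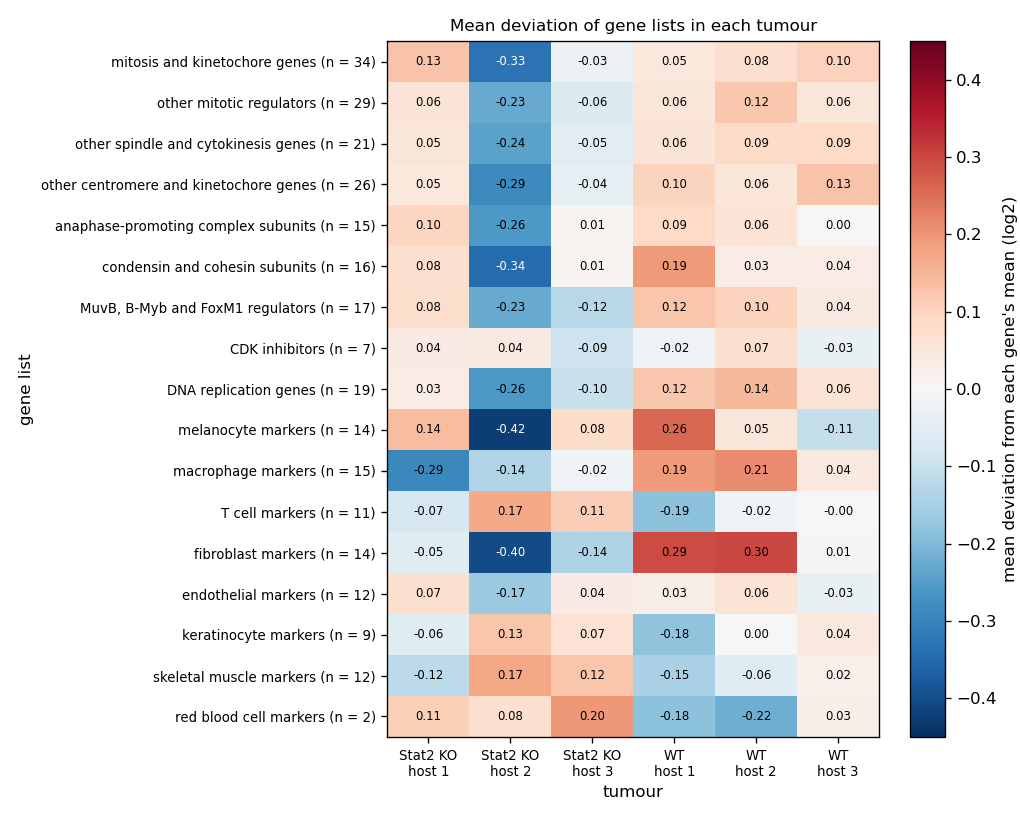
Mean deviation (log2, colour and printed value) of each gene list in the 6 tumours from each gene's mean over all tumours, with the number of measured genes in brackets. The mitosis and kinetochore genes have -0.33 in Stat2 KO host 2, and the melanocyte and fibroblast markers have -0.42 and -0.40 there.

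Markers of other cells did not share 1 direction, and the direction of all genes changed with level as well. T cell markers had a median level of 5.846, in bin 4 of genes by level. In that bin 23.1% of genes were below 0 and the median was 0.113, so most equally dim genes shared their direction. Macrophage and fibroblast markers, at 6.13 and 6.859, lay in bins 5 and 7, with medians of 0.105 and -0.034. Macrophage markers were below 0 in 13 of 15 cases with a median of -0.21 and summed levels of 10.27 to 10.47 in Stat2 KO hosts, against 10.57 to 10.85 in WT hosts, with C1qb at -0.95 and Ms4a7 at -0.83. They were lowest in Stat2 KO host 1 for 7 of 15 markers, beside 2786 of all 22180 genes. Fibroblast markers were below 0 in 13 of 14 cases (median -0.35), and Pdpn and Dcn differed by -0.93 and -0.94. T cell markers were above 0 in 9 of 11 cases (median 0.089), with Cd28 at 0.46 and Cd27 at 0.31, summed levels of 9.28 to 9.52 in Stat2 KO hosts, against 9.18 to 9.36 in WT hosts, and Cd3g no brighter than the typical olfactory receptor gene. Melanocyte markers were below 0 in 12 of 14 cases (median -0.10), with Ednrb at -0.33 and Trpm1 at -0.39. Their median level of 10.329 lay in bin 10, where 74.7% of genes were below 0 with a median of -0.095, so most equally bright genes shared their direction. With an adjusted p under 0.05 there were 0 genes in any of these marker lists.

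Endothelial markers were below 0 in 7 of 12 cases and above in 5, from -0.45 to 0.147, with a median of -0.023. Their summed levels were 10.88 to 11.29 in Stat2 KO hosts, against 11.11 to 11.21 in WT hosts. Cdh5 and Emcn, the 2 with the smallest p, differed by -0.45 and -0.29. Keratinocyte markers were above 0 in 6 of 9 cases and below in 3, from -0.28 to 0.38, with Ivl at 0.38 and Krt10 at 0.27. Skeletal muscle markers were above 0 in 9 of 12 cases and below in 3, from -0.19 to 0.60, with Myh4 at 0.60 and Tnnt3 at 0.20. Dsc3 and Mylpf, from these 2 lists, were no brighter than the median olfactory receptor gene. Both red blood cell markers measured were above 0, Slc4a1 at 0.38 and Epb42 at 0.13. Keratinocyte and skeletal muscle markers had median levels of 5.864 and 6.056, in bins 4 and 5 of genes by level. Most genes of these bins were also above 0, with median differences of 0.113 and 0.105. Red blood cell markers, with a median level of 5.808, lay in bin 4 too. Endothelial markers, at 6.804, lay in bin 7, with 59.1% of genes below 0 and a median of -0.034. The part of any of these cell types in the differences of the mitotic genes was not tested.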

How the data were processed

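Total RNA of 6 tumours was labelled with biotin and read on Affymetrix arrays, 1 array per tumour. Each deposited value is the log2 expression of a probe set, and the submitters' processing notes list RMA and Affymetrix Expression Console (version 1.3.1) as the authors' tools, without saying whether the 6 arrays were normalized together. No genome build was named for the probe sets. Of 41345 probe sets, 23521 are annotated to 1 gene, 1814 to several and 16010 to none, and the brightest probe set of each gene gave 22180 genes. No filter was applied to dim probe sets, and the number of arrays limits the precision.

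Differences were fitted with limma 3.58.1 in R 4.3.3 (lmFit, eBayes with an intensity trend, residual df 4, prior df 8.139), two-sided, with Benjamini-Hochberg adjustment over all genes and a threshold of 0.05. On simulated data of 22180 genes for this comparison, the fit found 96 of 100 genes with a log2 change of 1 and 100 of 100 with a change of 2, with 16 false among 212 calls. The simulated noise was independent for each gene, without shifts shared by the genes of an array. Both changes are larger than any member's difference (at most 0.35 in size), so the simulation does not show whether changes of that size would be found. Lists are described by counts and medians, beside all genes and genes whose level lay between the members' quartiles.

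The members and lists were chosen with earlier results of these data known. Values in every tumour are given for the 2 members with the smallest p of each of 9 roles, for Mki67, Top2a and Cdk1, and for members whose groups do not overlap. Other lists name up to 3 genes, and marker lists up to 2, with the smallest p. Values of Bub1, Ndc80 and Hmmr were added after they were seen. Alternatives were the replicate block, quantile normalization, median centring, cyclic loess, a brightness filter, the mean of probe sets, other variance models, array weights and each tumour left out.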

Additional observations from a re-analysis of the deposited data

How the results depend on the processing

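With 3 tumours a side, the members' SEs were 0.129 to 0.211. Members with an adjusted p under 0.05 numbered 0 under every alternative. The count over all genes, 2, became 0 after quantile normalization, 1 after cyclic loess and without the trend, and 257 with array weights, and ranged from 0 to 17 with 1 tumour left out. Lower members at an unadjusted p under 0.05, 2 here, numbered 0 after quantile normalization and cyclic loess, 1 without the trend, 6 with array weights and 0 to 7 with 1 tumour left out. Members below all WT tumours, 4 here, numbered 1 after quantile normalization and cyclic loess and 4 to 16 with 1 tumour left out. Members below 0 numbered 20 to 33 with 1 tumour left out, 33 after median centring and 22 after cyclic loess. The members' median ranged from -0.28 to -0.010 with 1 tumour left out and was -0.23 after median centring.

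The labels' replicate numbers are shared by both groups, but the labels name no litter or batch, so same-numbered tumours were not taken as pairs. Deviations of same-numbered tumours correlated by 0.24, 0.079 and 0.030, and those of differently numbered tumours by -0.289 to 0.205. With the replicate block the median stayed at -0.17, with 32 of 34 below 0, 2 lower at an unadjusted p under 0.05 and 0 past the adjusted threshold.

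Signs turned for 10 members after quantile normalization (Ccna2 0.052, Aurka 0.027, Ttk 0.018, Espl1 0.023, Cenpa 0.069, Cenpf 0.052, Nuf2 0.028, Tpx2 0.006, Anln 0.092, Ect2 0.062). The same 10 turned after cyclic loess (Ccna2 0.071, Aurka 0.030, Ttk 0.032, Espl1 0.010, Cenpa 0.067, Cenpf 0.052, Nuf2 0.028, Tpx2 0.020, Anln 0.10, Ect2 0.078). With array weights Ccna2 was 0.045, Bub1 0.015, Anln 0.15 and Ect2 0.10, and Ube2c was -0.050 after median centring. With 1 tumour left out, the sign turned for members whose differences ranged from -0.099 to 0.12 (Ccna2), -0.23 to 0.045 (Aurka), -0.31 to 0.17 (Bub1), -0.16 to 0.056 (Ttk), -0.061 to 0.093 (Ube2c), -0.12 to 0.009 (Cenpa), -0.36 to 0.091 (Ndc80), -0.16 to 0.044 (Nuf2), -0.31 to 0.051 (Kif23), -0.24 to 0.085 (Tpx2), -0.41 to 0.009 (Hmmr), -0.12 to 0.18 (Anln) and -0.16 to 0.20 (Ect2). The cause of these changes was not tested. The share of members with a CHR core was 79.3% and with CCAAT 69.0% from 100 bases before to 50 after the start.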

Other observations

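A CHR core stood in the promoter window of 70.0% of 20 other spindle and cytokinesis genes, 58.3% of 24 other mitotic regulators, 6 of 12 condensin and cohesin genes and 45.5% of 22 other centromere and kinetochore genes. It stood in 18.8% of 16 DNA replication genes and in 2 of 14 genes of the anaphase-promoting complex list, beside 21.7% of all genes. CCAAT stood in 12 of 16 replication genes and in 22 of 29 mitosis and kinetochore genes, beside 41.1% of all genes. It stood in 16 of 24 other mitotic regulators, 13 of 22 other centromere and kinetochore genes and 11 of 20 other spindle and cytokinesis genes. For condensin and cohesin genes the count was 6 of 12, and for the anaphase-promoting complex list 5 of 14. In the tumour of Stat2 KO host 2 the mean deviations were -0.24 for other spindle and cytokinesis genes, -0.26 for replication genes and -0.26 for the anaphase-promoting complex list. They were -0.345 for condensin and cohesin genes, -0.287 for other centromere and kinetochore genes and -0.226 for other mitotic regulators. MuvB and related regulators stood at -0.227 and CDK inhibitors at 0.04, beside -0.193 for genes as bright as the members. These are descriptions of the letters and levels, and the relation between them was not tested.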
